A study of Mus musculus with 6 samples.

Results

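The 10 genes followed here belong to the NF-kappa B system and comprise the 6 inhibitor and feedback genes Nfkbia, Nfkbib, Nfkbie, Nfkbiz, Bcl3 and Tnfaip3, and the 4 subunit genes Nfkb1, Nfkb2, Rel and Relb. A probe set, a group of array oligonucleotides read as 1 signal, was taken for a gene when the platform annotation gave it that symbol and no other. By that rule 9 of the 10 genes were measured, by 19 probe sets, among 18193 named genes on the array. Nfkb1 had no such probe set and is not analysed here. The RNA came from endothelial cells recovered out of Matrigel (a basement membrane gel) placed as plugs in the peritoneum of Balb/c nude mice, a strain without a thymus that lacks most T cells but keeps its macrophages, neutrophils, B cells and natural killer cells. Plugs of the MFAP5 group contained recombinant microfibrillar-associated protein 5 (MFAP5), a secreted protein of elastic fibres, and plugs of the control group contained none. Each group had 3 samples on 1 Affymetrix Mouse Genome 430 2.0 array each, and the comparison asked how cells that had moved into the MFAP5 gel differed from those in the plain gel. None of the dose of MFAP5, the time in the animal and the way endothelial cells were purified is given in the sources used here, nor whether each sample was a different mouse, so p-values measure the spread between these samples, which may be technical.

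NF-kappa B is a family of dimeric transcription factors built from RelA, RelB, c-Rel, p50 and p52. In unstimulated cells the dimers are held in the cytoplasm by inhibitor of kappa B proteins, and signals from tumour necrosis factor, interleukin 1 or microbial products activate a kinase complex that marks the inhibitors for degradation. The freed dimers enter the nucleus and switch on inflammatory genes, and also the genes of their own inhibitors, so that transcripts such as Nfkbia and Tnfaip3 rise early and close a negative feedback loop. In endothelium the pathway is best known for the induction of leukocyte adhesion molecules and chemokines.

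NF-kappa B dimers bind kappa B sites, short near-palindromic DNA elements, and the stretches upstream of the members are shown because they carry the letters of this element. The 250 bases before each annotated RefSeq start (GRCm38.p6) were searched on both strands for the 10-letter kappa B consensus and for the AP-1 element TGANTCA. The promoter table held 7 of the 10 members, all but Nfkb1, Nfkbiz and Relb. A gene with several starts has several windows, and a match in any of them was counted. The kappa B consensus was found in 5 of these 7 genes, against 8.23% of all 27025 gene symbols with a window. By single window it was in 7.25% of 32851, and TGANTCA in 6.75%. A match is a description of letters and not evidence of binding. Capitals mark the consensus in the sequences below, written 5′ to 3′ on the strand of the gene. Overlapping matches were counted together as a single match. In the stretches of Rel, Nfkb2, Cxcl1 and Cxcl2 an overlapping match runs on into the next base, and capitals mark only the first 10 bases.
Nfkbia: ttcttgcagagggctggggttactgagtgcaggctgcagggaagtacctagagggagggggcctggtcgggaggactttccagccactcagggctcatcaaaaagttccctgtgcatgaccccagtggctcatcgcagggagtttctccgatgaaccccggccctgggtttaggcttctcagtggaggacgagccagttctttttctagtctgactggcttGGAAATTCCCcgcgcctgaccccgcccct
Tnfaip3: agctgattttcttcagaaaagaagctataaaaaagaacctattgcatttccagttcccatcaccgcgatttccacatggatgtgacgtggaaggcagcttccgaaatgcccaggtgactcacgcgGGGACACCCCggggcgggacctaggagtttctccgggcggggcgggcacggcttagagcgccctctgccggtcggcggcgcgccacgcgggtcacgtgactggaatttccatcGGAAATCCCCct
Nfkbie: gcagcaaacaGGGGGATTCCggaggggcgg
Rel: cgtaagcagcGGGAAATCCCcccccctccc
Nfkb2: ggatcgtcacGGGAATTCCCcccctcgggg
Il6: tatcaaatgtGGGATTTTCCcatgagtctc
Cxcl1: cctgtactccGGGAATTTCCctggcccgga
Cxcl2: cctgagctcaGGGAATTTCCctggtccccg

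The Nfkbia window (chr12:55492648-55492897, minus strand) held 1 match, between 29 and 20 bases before the start. The Tnfaip3 window of the first of 2 annotated starts (chr10:19015411-19015660, minus strand) held 2, at 125 to 116 and 12 to 3 bases before the start, with a TGANTCA element at 136 to 130 bases that did not overlap either. Nfkbie had its match at chr17:45555594-45555603 (plus strand) and Rel at chr11:23771052-23771061 (minus strand). Nfkb2, which has 3 annotated starts on the plus strand, had 4 matches over its windows, of which the one at chr19:46304698-46304707 is shown. The shorter stretches give each match with 10 bases on either side. The last 3 sequences belong to target genes described further on, Il6 (chr5:30013070-30013079), Cxcl1 (chr5:90891174-90891183) and Cxcl2 (chr5:90903802-90903811), all on the plus strand, and 14 of 48 listed target genes with a window held the consensus, beside the same 8.23%. Bcl3 and Nfkbib had no match in these windows. Of the 5 members with a match Nfkbia passed the test given below, and Tnfaip3, Nfkbie, Rel and Nfkb2 did not.

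The deposited values were relative log2 signals, each probe set set to a median of 0 over the 6 arrays, so a value compares arrays and says nothing about how abundant a transcript was. The pair of arrays in the middle of a probe set therefore has values of equal size and opposite sign. Higher values were read as more signal and the log base as 2, neither of which is stated. The medians of single arrays lay between -0.03 and 0.05, and precision is limited by there being 3 arrays in a group. The label of endothelial cells could not be checked, since no level can be read. Of 18 endothelial markers none passed the limma test and 6 were under 0.05 before adjustment, as were 3584 of all 18193 genes. The median difference of the markers, MFAP5 minus control, was -0.23. Other markers moved with the groups. Of 10 measured adipocyte markers 9 fell, with medians of 1.16 to 1.35 in the control and -4.11 to -0.96 in the MFAP5 arrays. Of 12 neutrophil markers 5 fell, with medians of 0.12 to 0.47 and -0.29 to -0.22. Over all genes 2.79% fell. None of 14 macrophage or 10 lymphocyte markers passed (2 and 1 at an unadjusted p under 0.05), at median differences of 0.08 and -0.17. Of 11 fibroblast markers 1 fell and 10 had a positive difference, as had 6258 of all genes, with a median of 0.27. Of 11 pericyte and smooth muscle markers 1 fell, at a median of -0.11. None of 9 mesothelial or 9 skeletal muscle markers passed (1 and 4 at an unadjusted p under 0.05), at medians of -0.11 and -0.29. In a bulk sample fewer cells of a type and less RNA per cell cannot be told apart. The log2 signal of the 3′ end of beta-actin relative to its 5′ end, a measure of RNA integrity, was higher in every MFAP5 array (difference 0.12, exact permutation test, two-sided, p = 0.1, the smallest that 3 against 3 arrays can give). The same measure for Gapdh overlapped between the groups, at -0.16, 0.03 and -0.03 against 0.09, -0.04 and 0.03 (exact permutation test, two-sided, p = 0.4). Control replicate 1 stood apart, with a correlation of -0.03 and 0.02 with the other controls, which correlated at 0.69 across probe sets, and spike-in signals of -0.32 against 0.64 and 0.65. The part of these differences in the results below was not tested.

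**Figure D1:**
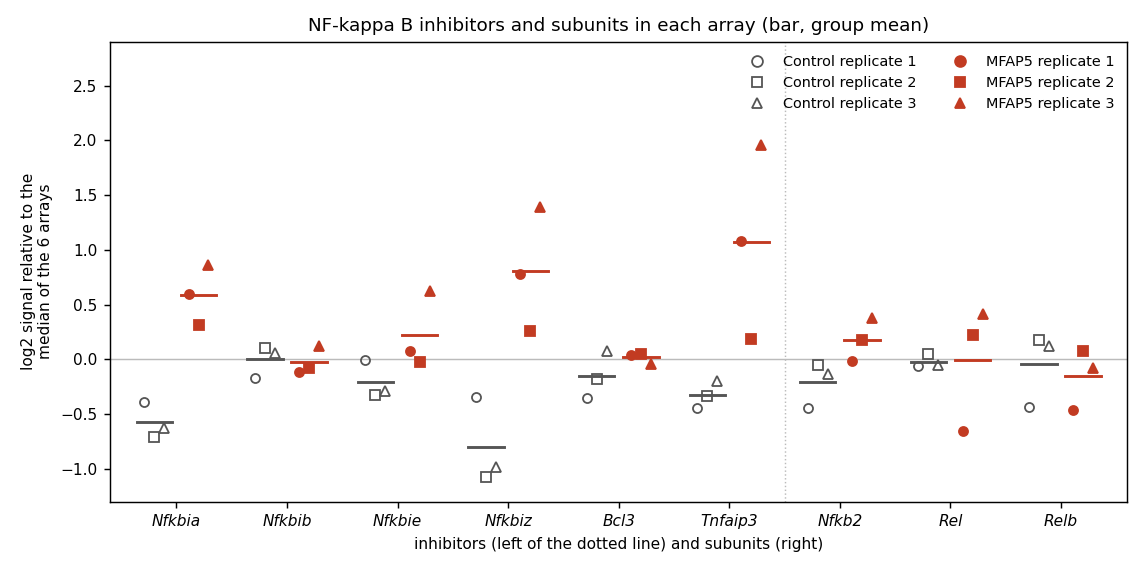
Relative log2 signal (vertical axis, 0 is the median of the 6 arrays) of the 9 measured genes in each array; open grey symbols are control and filled red symbols MFAP5 arrays, the symbol shape gives the replicate number and bars are group means. Nfkbia, Nfkbiz and Tnfaip3 have all 3 MFAP5 arrays above all 3 controls, with replicate 3 highest, and so has Nfkb2 at a smaller distance; the groups overlap in the other 5 genes.

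The inhibitor genes Nfkbia and Nfkbiz rose with MFAP5 (adjusted p under 0.05 over all genes), and no measured member fell. Nfkbia encodes inhibitor of kappa B alpha, which holds RelA-containing dimers in the cytoplasm and pulls them back out of the nucleus once resynthesized. Its gene value, the mean of 5 probe sets, was -0.39, -0.71 and -0.63 in control replicates 1, 2 and 3 and 0.60, 0.32 and 0.86 in MFAP5 replicates 1, 2 and 3. The groups did not overlap, and even the lowest MFAP5 array lay 1.86-fold above the control mean. The difference was 1.17 ± 0.16 on the log2 scale (SE, n = 3 per group; limma adjusted p = 0.00539), or 2.25-fold with a 95% interval of 1.76 to 2.87. All 5 probe sets passed on their own among 45037 probe sets, at differences of 0.96 to 1.36 and adjusted p of 0.00227 to 0.0295. Probe set 1420089_at had the smallest SE, with -0.52, -0.75 and -0.79 in the controls against 0.64, 0.52 and 0.80 in MFAP5 plugs. Whichever array was left out the gene value of Nfkbia stayed past the threshold, at 1.03 to 1.31. Its single probe sets were less stable. All 5 passed without control replicate 1 or MFAP5 replicate 2. Only 1420089_at passed without control replicate 2, control replicate 3 or MFAP5 replicate 1. Without MFAP5 replicate 3 only 1420089_at and 1438157_s_at did, and with a spike-in covariate only 1420088_at and 1420089_at. With the unmoderated statistic, which uses the spread of the gene alone, the adjusted p of the gene value was 0.143.

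Nfkbiz encodes inhibitor of kappa B zeta, a nuclear family member that is itself induced early and is needed, together with p50, for a second wave of genes that includes Il6. Its 3 probe sets gave a mean of -0.34, -1.07 and -0.98 in control replicates 1, 2 and 3 and 0.78, 0.25 and 1.39 in MFAP5 replicates 1, 2 and 3. Here too the groups were apart, with control replicate 1 and MFAP5 replicate 2 closest to each other. The difference was 1.61 ± 0.29 (SE, n = 3 per group; limma adjusted p = 0.0210), or 3.05-fold with a 95% interval of 1.93 to 4.82. The probe sets differed in size. Probe set 1417483_at read -0.37, -1.88 and -1.60 against 1.14, 0.37 and 1.59, which differ by 2.32 ± 0.42 (SE, n = 3 per group; limma adjusted p = 0.0240). Probe set 1448728_a_at, which the annotation assigns to the same gene, read -0.42, -0.15 and -0.34 against 0.80, 0.15 and 1.52. Its difference of 1.12 ± 0.30 did not pass (limma adjusted p = 0.0877). Among the controls, replicate 1 was thus the highest in the first of these probe sets and the lowest in the second. The third, 1457404_at, passed at 1.38 (adjusted p = 0.0381). The call on the gene was lost without control replicate 2 (1.47, adjusted p = 0.110), control replicate 3 (1.52, 0.111) or MFAP5 replicate 1 (1.62, 0.0676), and with a spike-in covariate (1.37, 0.0907), while it was kept without control replicate 1 (1.83). With the unmoderated statistic the call was lost too (adjusted p = 0.233).

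Tnfaip3 encodes A20, an enzyme that edits ubiquitin chains on signalling proteins upstream of the kinase complex and so shuts the pathway down. Its values were -0.45, -0.34 and -0.19 in control replicates 1, 2 and 3 and 1.08, 0.18 and 1.96 in MFAP5 replicates 1, 2 and 3. The control arrays lay close together (SD 0.13, n = 3) and the MFAP5 arrays far apart (SD 0.89, n = 3), at 2.65-, 1.42- and 4.88-fold the control mean in replicates 1, 2 and 3. The groups did not overlap, in the gene or in either of its 2 probe sets. The difference of 1.40 ± 0.37 (SE, n = 3 per group) missed the threshold (limma adjusted p = 0.0800), with a 95% interval of 0.56 to 2.24. Without MFAP5 replicate 2, the array nearest to the controls, it was 1.85 and passed (adjusted p = 0.00699), and without MFAP5 replicate 3 it was 0.96. It also passed with array weights (1.25, limma adjusted p = 0.0312), and with a variance trend its SE was 1.07 and its adjusted p 0.490.

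The other inhibitor genes did not pass. Nfkbie, inhibitor of kappa B epsilon, read -0.01, -0.32 and -0.29 in control replicates 1, 2 and 3 and 0.07, -0.02 and 0.63 in MFAP5 replicates 1, 2 and 3. Its groups overlapped, because control replicate 1 lay above MFAP5 replicate 2, and the difference was 0.43 ± 0.18 (SE, n = 3 per group; limma adjusted p = 0.232). MFAP5 replicate 3 stood well above the other arrays, and without it the difference was 0.23. Of its 2 probe sets 1458299_s_at had a difference of 0.58 and 1431843_a_at of 0.28, and neither passed. Without the _s_at probe set the difference of Nfkbie was 0.28. Bcl3, an atypical family member that sits on p50 and p52 dimers in the nucleus and can activate transcription, was measured by 1 probe set at -0.35, -0.18 and 0.08 against 0.04, 0.05 and -0.04. Its 95% interval ran from -0.12 to 0.46. Nfkbib, inhibitor of kappa B beta, which unlike the alpha form is not a rapidly induced gene in most cells, read -0.17, 0.10 and 0.06 against -0.12, -0.08 and 0.13. Its difference was -0.02 with a 95% interval of -0.29 to 0.25 (limma adjusted p = 0.936), and it changed sign with quantile normalization (0.030) and with median centring of the arrays (0.012), so it has no settled direction. The interval for Nfkbib lies below that of Nfkbia, 0.81 to 1.52, but the difference between the genes was not tested.

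Of the 3 measured subunit genes none passed, and 1, Nfkb2, had an unadjusted p under 0.05. Nfkb2 encodes p100, the precursor of p52, which works in the non-canonical arm of the pathway and is also an inhibitor in its uncleaved form. Its values were -0.44, -0.05 and -0.14 in control replicates 1, 2 and 3 and -0.02, 0.18 and 0.38 in MFAP5 replicates 1, 2 and 3, narrowly apart, 0.39 ± 0.14 apart in the mean (SE, n = 3 per group; limma adjusted p = 0.192). The 2 probe sets disagreed. Probe set 1429128_x_at had -0.44, -0.22 and -0.23 against 0.22, 0.30 and 0.72, a difference of 0.71 with an adjusted p of 0.0517 by limma, while 1425902_a_at had -0.45, 0.11 and -0.04 against -0.25, 0.05 and 0.04, a difference of 0.07. The suffix _x_at marks probes that can also hybridize to other transcripts, so the higher of the readings is uncertain as a measure of Nfkb2 alone. Without such probe sets the difference was 0.07.

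Rel encodes c-Rel, a subunit used mostly by lymphoid and myeloid cells. Its probe set read -0.06, 0.05 and -0.05 in the controls and -0.65, 0.22 and 0.41 in MFAP5 replicates 1, 2 and 3. The controls lay close together while MFAP5 arrays lay on both sides of them, and the difference was 0.02 ± 0.24 (SE, n = 3 per group; limma adjusted p = 0.977). Relb encodes RelB, the partner of p52. It read -0.43, 0.18 and 0.12 in control replicates 1, 2 and 3 and -0.46, 0.07 and -0.07 in MFAP5 replicates 1, 2 and 3, where replicate 1 was the lowest array of each group. Its 95% interval, -0.56 to 0.34, allows changes of either sign, and leaving out single arrays moved the difference between -0.31 and 0.04.

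**Figure D2:**
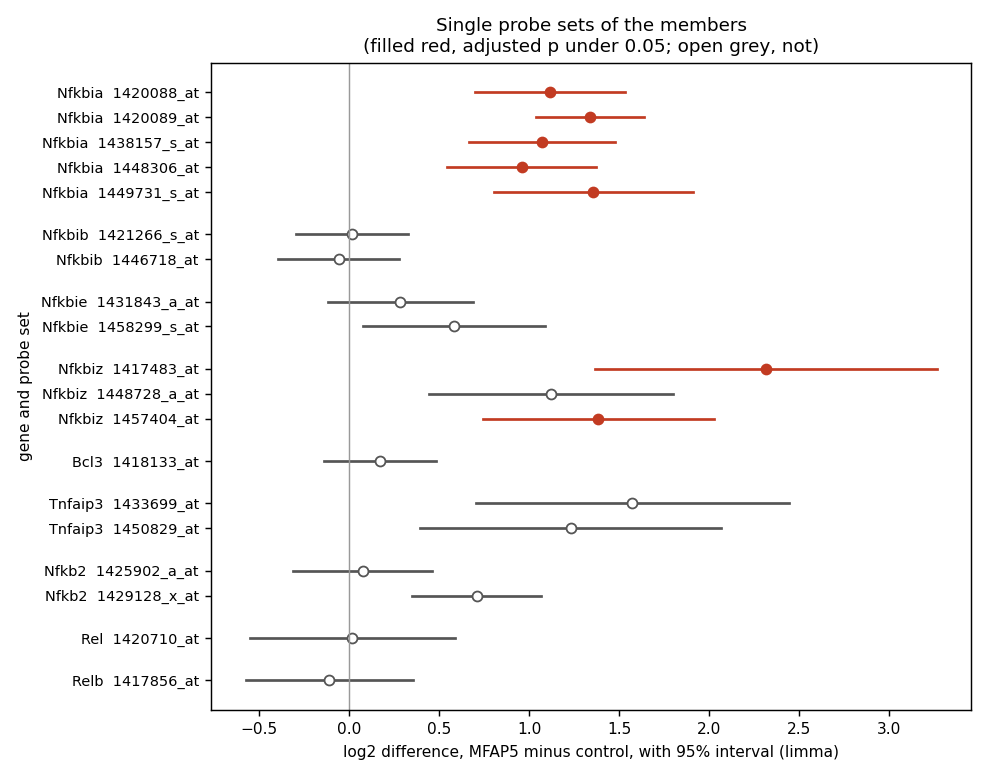
Log2 difference between the MFAP5 and control arrays (horizontal axis) of each of the 19 probe sets of the members, with limma's 95% interval; filled red points had an adjusted p under 0.05 over 45037 probe sets. All 5 probe sets of Nfkbia and 2 of 3 of Nfkbiz are filled, and the intervals of the other of Nfkbiz, both of Tnfaip3, 1 of 2 of Nfkbie and 1 of 2 of Nfkb2 lie above 0 without passing.

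Across the set, 2 of 9 measured genes rose and none fell, by limma with an adjusted p under 0.05 over all genes. Before adjustment 5 of the 9 had a p under 0.05, as had 3584 of all genes. Over all 18193 genes 0.759% rose and 2.79% fell. By probe set, 7 of 19 rose and none fell, against 1.56% higher over the array. All 3 MFAP5 arrays lay above all 3 controls in 4 of 9 genes, against 6.51% of genes. The median difference was 0.39 over the 9 genes and -0.08 over all genes. The inhibitors and the subunits had medians of 0.80 (6 genes) and 0.02 (3 genes), a contrast that was not tested. Without control replicate 1 the same 2 genes passed, beside 4.18% of all genes higher. Without control replicate 2, control replicate 3 or MFAP5 replicate 1 only Nfkbia did, and without MFAP5 replicate 2 Tnfaip3 joined them.

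Among the MFAP5 arrays, replicate 3 was the highest in 7 of the 9 members, all but Bcl3 and Relb, and over all genes it was the highest in 34.9%. Replicate 1 was the highest in none. In Nfkbia, Nfkbiz and Tnfaip3 the order was replicate 3, replicate 1 and replicate 2. The adipocyte medians of the MFAP5 arrays were also highest in replicate 3 (-0.96), followed by replicate 2 (-2.64) and replicate 1 (-4.11), and a relation to the members was not tested.

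**Figure D3:**
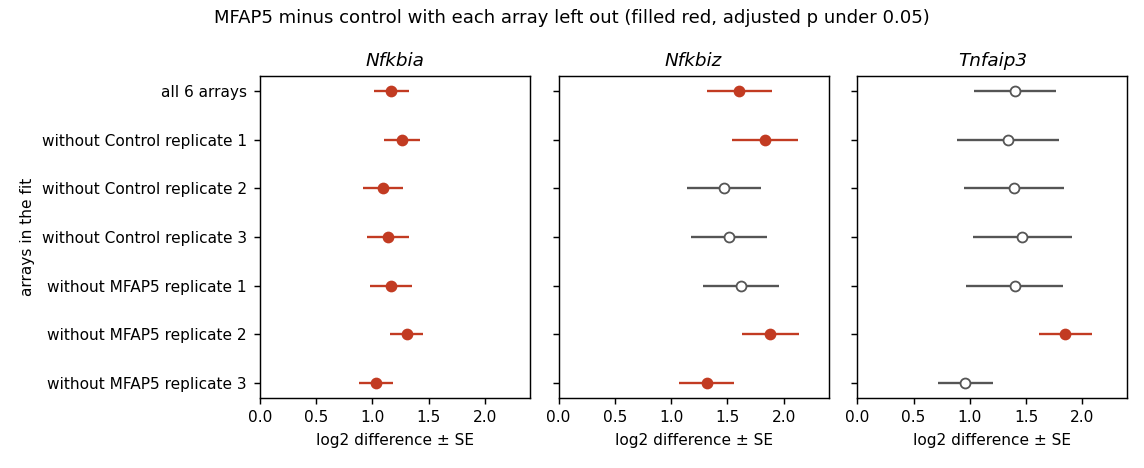
Log2 difference of Nfkbia, Nfkbiz and Tnfaip3 (horizontal axis, bars are limma's SE) with all 6 arrays and with each array left out in turn (vertical axis); filled red points had an adjusted p under 0.05. Nfkbia is filled in every row at 1.03 to 1.31, Nfkbiz is open in 3 rows and Tnfaip3 is filled only without MFAP5 replicate 2.

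Of 83 other measured pathway genes 1 rose and 1 fell, beside 0.759% and 2.79% of all genes, with a median difference of -0.06. An unadjusted p under 0.05 was reached by 19 of the 83 and by 3584 of all 18193 genes. The groups did not overlap in some of the 83, with the MFAP5 arrays above in 9 and below in 14. Of all 18193 genes the MFAP5 arrays lay above in 1184 and below in 3236. Of 11 ligand genes, 1 fell. This was Il1a, which encodes interleukin 1 alpha, at 0.23, 0.35 and 0.25 in the controls against -0.23, -0.60 and -0.28, which is -0.65 ± 0.12 (SE, n = 3 per group; limma adjusted p = 0.0261). Il33, which encodes the alarmin interleukin 33 and was chosen after its values were seen, had the largest difference of the 11. It read -0.12, -1.25 and -0.998 in control replicates 1, 2 and 3 and 0.94, 0.22 and 0.12 in MFAP5 replicates 1, 2 and 3. The groups were apart in the direction opposite to Il1a, and the difference of 1.22 ± 0.31 (SE, n = 3 per group) missed the threshold (limma adjusted p = 0.0729). The main inducers Tnf, tumour necrosis factor, and Il1b, interleukin 1 beta, had differences of -0.16 and 0.34 that did not pass, with 95% intervals of -0.69 to 0.37 and -0.53 to 1.21. MFAP5 replicate 3 was the highest array for Il1b (1.11) and stood level with the highest control for Tnf (0.47 and 0.47). Of 19 receptor genes none passed limma's test, and 2 were under 0.05 before adjustment.

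Of 31 genes of adaptors, kinases and RelA none passed limma's test, with 10 at an unadjusted p under 0.05. Rela, which encodes RelA, the main activating subunit, had -0.14, -0.08 and 0.04 against -0.04, 0.16 and 0.08, and its 95% interval ran from -0.12 to 0.36. The kinase gene Ikbkb was at 0.17 (interval -0.06 to 0.40), Ikbkg, the scaffold of the kinase complex also called NEMO, at -0.27 (-0.49 to -0.05, adjusted p = 0.179), and Map3k14, the kinase of the non-canonical arm, at -0.08 (-0.46 to 0.31). Chuk had no probe set with a single symbol and is not analysed here. Birc3, a ubiquitin ligase of the receptor complex and a known target gene, stood apart between the groups, at -0.31, -0.24 and -0.16 against 0.17, 0.21 and 0.76, and missed the threshold (0.62 ± 0.16, SE, n = 3 per group; limma adjusted p = 0.0782).

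Of 22 other inhibitor genes 1 rose, Usp18, a protease that removes the ubiquitin-like protein ISG15 and an interferon-induced gene, by 0.70 (adjusted p = 0.0229). Nfkbid, a nuclear inhibitor of the same family as Nfkbiz, read -0.25, 0.03 and 0.14 against -0.19, -0.03 and 0.96, where MFAP5 replicate 3 alone was high, and its difference of 0.27 did not pass. Tnip1, a partner of A20, was at -0.15 with an interval of -0.42 to 0.11. Without control replicate 1, 4 of the 83 genes were higher, beside 4.18% of all genes, and 8 were lower, for which the share of all genes was not counted. In that fit 30 of the 83 had an unadjusted p under 0.05, as had 6082 of all 18193 genes. Without control replicate 2 or 3 none passed limma's test (8 and 7 at an unadjusted p under 0.05, beside 2267 and 2173 of all genes), and with MFAP5 replicate 2 or 3 left out 1 did. With the spike-in covariate none passed and 11 had an unadjusted p under 0.05.

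**Figure D4:**
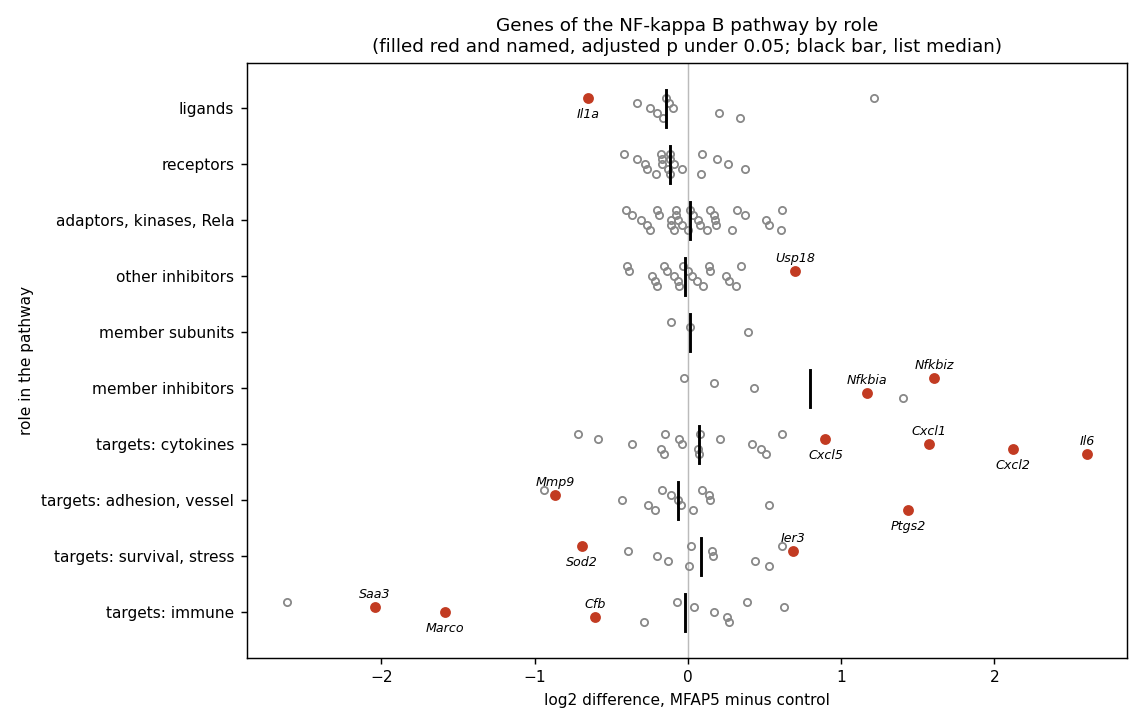
Log2 difference between the MFAP5 and control arrays (horizontal axis) of every measured gene of the lists, by role (vertical axis); filled red points with names had an adjusted p under 0.05 over all genes and black bars are list medians. Ligands run from Il1a at -0.65, which passed, to Il33 at 1.22, which did not, no receptor or kinase is filled, and target genes have passing members on both sides, from Il6 at 2.61 to Saa3 at -2.04.

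Known target genes of NF-kappa B split. Of 59 measured targets 6 rose and 5 fell, beside 0.759% and 2.79% of all genes, with a median difference of 0.04. By limma 23 of the 59 had an unadjusted p under 0.05, as had 3584 of all 18193 genes. The list was written with earlier results of these data known. Those that rose were the chemokine genes Cxcl1, Cxcl2 and Cxcl5, which attract neutrophils, the cytokine gene Il6, the cyclooxygenase gene Ptgs2 and the early response gene Ier3. Cxcl2 read -0.46, -1.42 and -1.25 in control replicates 1, 2 and 3 and 1.00, 0.46 and 1.78 in MFAP5 replicates 1, 2 and 3. Its MFAP5 arrays had the same order as those of Nfkbiz, and the difference was 2.12 ± 0.34 (SE, n = 3 per group; limma adjusted p = 0.0138). Il6 read -0.60, -0.59 and -0.49 against 2.64, 0.49 and 3.01. As in Tnfaip3, the controls were tight and MFAP5 replicate 2 lay nearest to them. Cxcl1, Cxcl5, Ptgs2 and Ier3 differed by 1.57, 0.90, 1.44 and 0.69.

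The targets that fell were Saa3, an acute-phase serum amyloid gene, Marco, a macrophage scavenger receptor, Mmp9, a gelatinase of neutrophils, Sod2, the mitochondrial superoxide dismutase, and Cfb, complement factor B. Sod2 read 0.38, 0.28 and 0.35 in the controls and -0.48, -0.30 and -0.27 in the MFAP5 arrays, which is -0.69 ± 0.10 (SE, n = 3 per group; limma adjusted p = 0.00878). It is among the targets induced in most cell types, and its arrays were apart in the direction opposite to Nfkbia. Saa3 differed by -2.04, Marco by -1.59, Mmp9 by -0.87 and Cfb by -0.61. Mmp9 is also on the neutrophil list, of which 5 of 12 genes fell, and the part of other cells in these values was not tested. The endothelial adhesion genes did not pass: Icam1, which binds leukocyte integrins, was at -0.11 (95% interval -0.45 to 0.23), Vcam1 at -0.05 (-0.31 to 0.22) and Sele, E-selectin, at 0.14 (-0.15 to 0.43), and the monocyte chemokine gene Ccl2 was at -0.06 (-0.43 to 0.31). With control replicate 2 left out 1 target was higher and 4 lower, and with control replicate 3 left out none was higher and 2 were lower. The shares of all genes called in these fits were not counted. In them 19 and 18 of the 59 targets had an unadjusted p under 0.05 by limma. Over all 18193 genes 2267 and 2173 had, against 3584 with all arrays.

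Many stimuli, and tissue handling, induce the genes of the immediate early and stress response. Of 34 measured 14 rose and none fell, beside 0.759% of all genes higher, and 20 did not pass, among them Nr4a3 at -0.18 and Fosl1 at -0.14, both chosen after their values were seen. In 28 of the 34 all 3 MFAP5 arrays lay above all 3 controls, beside 6.51% of all genes. This list, like that of the targets, was written with earlier results of these data known. The 6 with the smallest p were Egr3, Hspa1b, Klf6, Ier3, Dusp5 and Dusp1, at differences of 1.24, 1.45, 0.98, 0.69, 1.24 and 0.90. They encode zinc finger transcription factors (Egr3, Klf6), a heat shock protein with a near-identical neighbour gene whose signal may be mixed in (Hspa1b), phosphatases of MAP kinases (Dusp5, Dusp1) and the target Ier3 named above. The array medians of this list were -0.18, -0.28 and -0.30 in control replicates 1, 2 and 3 and 0.35, 0.15 and 0.57 in MFAP5 replicates 1, 2 and 3, the order seen for Nfkbia in both groups apart from control replicates 2 and 3. Their part in the members' rise was not tested. The 5 genes whose 6 values were most like those of Nfkbia, by Pearson correlation over the 6 arrays, were Birc6, Slfn1, Herc4, Rbm39 and Oasl2, at 0.997 to 0.998. Among the members Nfkbiz was the most like it (0.99, the 20th of 18192 genes), followed by Tnfaip3 (0.91), Nfkbie (0.86), Nfkb2 (0.71), Bcl3 (0.39), Rel (0.05), Nfkbib (-0.08) and Relb (-0.37). These correlations describe 6 arrays in 2 groups and mostly restate the difference between the groups.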

How the data were processed

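Per the labels' protocols the RNA was amplified, labelled with biotin and put on arrays of 1 colour. MAS5 appears in the submitters' processing notes, without its scaling or what followed it. The authors' deposited values were taken as log2 signals. The median over the 6 arrays was 0 in each probe set, with a tolerance of 5e-07, and the widest probe set spanned 8.24 units. A natural log would make each printed fold too small. Centring leaves no level, so dim probe sets could not be filtered. The difference of a member near background could be too small or unstable, which was not tested.

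From 45101 probe sets 64 controls were left out. The platform annotation gave 34945 of the 45037 tested 1 symbol, 932 several and 9160 none. Symbols were updated by Entrez identifier in RefSeq (GRCm38.p6), which held 34741 of those with 1 symbol. Probe sets of a gene were averaged.

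Groups were compared with limma 3.58.1 in R 4.3.3 (lmFit and eBayes with no variance trend; two-sided tests; p adjusted by Benjamini-Hochberg over all genes or all probe sets, threshold 0.05), a procedure tested on simulated data. Differences are MFAP5 minus control. The members, the lists and the tests were chosen with earlier results of these data known. Named were all members, up to 6 passing genes of each list, a set of pathway and target genes fixed by name and the 5 genes most correlated with Nfkbia. Alternatives were quantile normalization, median centring, a variance trend, array weights, an unmoderated statistic, a replicate block, a spike-in covariate (mean of 14 probe sets for bioB, bioC and bioD), each array left out, the probe set of largest SD, and no _s_at or _x_at probe sets.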

Additional observations from a re-analysis of the deposited data

How the results depend on the processing

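The count of members called by gene, 2, was 0 with the unmoderated statistic (2 at an unadjusted p under 0.05), 1 with the spike-in covariate, and 1 to 3 with an array left out. By probe set, 7 became 11 with array weights, 0 with the unmoderated statistic (9 at an unadjusted p under 0.05), 3 with the spike-in covariate, and 1 to 10 with an array left out. Over all probe sets an unadjusted p under 0.05 was reached by 8420 in the main fit and 15055 with array weights. Among the 19 member probe sets it was reached by 12 in both. Calls on other pathway genes, 2, became 20 with array weights, 0 with the unmoderated statistic (15 unadjusted) or the spike-in covariate (11 unadjusted), and 0 to 12 with an array left out. Calls on targets, 11, became 21, 0 (18 unadjusted) and 7 under the first 3 of these settings and 2 to 12 with an array left out. The counts over all genes moved too. An unadjusted p under 0.05 was reached by 3584 of 18193 genes in the main fit and by 7000 with array weights. The unmoderated statistic gave 2815, the spike-in covariate 2771 and single arrays left out 2173 to 6082. With array weights it was reached by 34 of the 83 other pathway genes and 27 of the 59 targets, against 19 and 23 in the main fit. Differences near 0 changed sign: Nfkbib was at 0.030 with quantile normalization, 0.012 with median centring, 0.067 with the spike-in covariate and -0.11 to 0.030 with an array left out, Rel at -0.19 to 0.34 with an array left out, and Relb at 0.10 with the spike-in covariate and -0.31 to 0.044 with an array left out. Nfkbia, Nfkbiz, Tnfaip3, Nfkbie, Bcl3 and Nfkb2 kept a positive difference under each of 15 alternatives. The beta-actin difference was 0.09 to 0.14 with an array left out. The cause of these changes was not tested.

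With the replicate number as a block, 3 members were called by gene, Tnfaip3 among them (limma adjusted p = 0.0408), 10 by probe set, 4 other pathway genes and 14 targets. Over all genes 4011 had an unadjusted p under 0.05 with the block, against 3584 in the main fit. The replicate numbers are not stated to pair the samples: deviations of samples with the same number correlated at 0.21, 0.05 and 0.09, and not every sample correlated best with its own number. The smallest possible p of an exact test of 3 against 3 is 0.1, and signal over background could not be judged from centred values.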
